A study of Mus musculus with 172 samples.

Results

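The genes of the proteasome and of its regulators were followed in cerebral cortex and liver of mice of the BXD panel after sleep deprivation. Members were all genes whose symbol starts with Psm, a letter from a to g and a digit in the deposited expression tables, and there were 50 of them among 16308 genes listed in either tissue. Of these, 19 belong to the core (Psma and Psmb genes) and 31 to the regulatory part (Psmc, Psmd, Psme, Psmf and Psmg genes). In each tissue 49 members were listed, with Psmb11 in cortex only and Psma8 in liver only. Psmc3ip carries the family prefix but encodes a meiotic recombination factor and no proteasome subunit, and it was kept because the symbol rule takes it.

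The proteasome degrades proteins that carry chains of ubiquitin. Its 20S core is a barrel of alpha rings (Psma genes) that gate the entry and beta rings (Psmb genes) that hold the proteolytic sites, and it is opened by the 19S particle, whose ATPases (Psmc genes) unfold the substrate and whose other subunits (most Psmd genes) bind ubiquitin and remove it. Other regulators are the activators PA28 and PA200 (Psme genes), the inhibitor PI31 (Psmf1) and chaperones that assemble the core (Psmg genes) or the base of the 19S particle (Psmd5, Psmd9 and Psmd10). After stimulation by interferon, the catalytic subunits Psmb5, Psmb6 and Psmb7 are replaced by Psmb8, Psmb9 and Psmb10, which form the immunoproteasome.

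RNA-seq was performed on 156 pools of RNA, 39 for each combination of tissue and condition. The SD mice were kept awake by gentle handling for 6 h from light onset, the Ctr mice were left undisturbed in another room, and both were killed at 6 h after light onset. Each group of 39 holds 1 pool of each of 33 BXD/RwwJ recombinant inbred lines, 4 pools of the parental strains (C57BL/6J, called B6, and DBA/2J, called D2, each sampled at the start and at the end of the breeding phase) and 2 pools of their reciprocal F1 hybrids. The labels name BXD96, BXD97 and BXD103 by the number of another line of the set with a letter added. With B6 and D2 also present as 2 pools each, the 39 pools of a group are not 39 independent genotypes. All mice were young adult males, and no engineered allele or drug other than isoflurane before decapitation is named. A pool holds equal RNA of the mice of a line, with fewer mice for BXD79, BXD85 and BXD101, so the spread between mice of a line cannot be seen, and the p-values below are over pools. A pool is bulk tissue, in which fewer cells of a type and less RNA per cell cannot be told apart.

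Values are log2 CPM (CPM are the reads of a gene relative to those of its library), and a change is the SD value minus the Ctr value of the same line. From 18995492 to 28998853 reads were counted per cortex library and from 4681101 to 8269401 per liver library. The markers of the tissues were present: all 6 neuronal markers were listed in cortex, with a summed level of 11855 to 13484 CPM in Ctr pools, and all 6 hepatocyte markers in liver, with 1390 to 2369 CPM. In cortex the Ctr library of BXD90 stood apart, with a mean over the 49 members of 5.17 log2 CPM against at most 5.01 in the other Ctr pools, and 43 of the 49 members were lower in its SD pool than in its Ctr pool. In liver the SD library of BXD70 stood apart, with a mean of 6.92 against at most 6.72 in the other SD pools and a median change of 0.48 over the constitutive core; without BXD70 and the DB F1 pools the 16 calls in liver remained and Psmd6 was added.

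Liver values of most members were compressed. In cortex, the log2 reads of a member rose with the log2 total of the library with a median slope of 0.962 over members, near the slope of 1 of reads in proportion to depth. In liver the median slope was 0.565, and it was 0.317 for Psmb6 and 0.306 for Psma7. Some members with few reads per base were less compressed, with 0.836 for Psmd9 and 1.02 for Psmf1 at 0.215 and 0.186 reads per base. Others were not, with 0.356 for Psma3 and 0.4 for Psma2 at 0.264 and 0.279 reads per base. The long transcript of Psme4 had a slope of 1.24. Over all genes with at least 0.5 reads per transcript base the median slope was 0.434 in liver (1369 genes) and 0.985 in cortex (3455 genes), and Alb, the most abundant liver transcript by textbook knowledge, had 1.78 reads per base where Snap25 in cortex had 39.5. Levels of members in liver are therefore not ranked. For members with a low slope, a difference in liver may be understated, or misstated in either direction where depth differs. Changes of the core in liver moved with depth. The median change of the 14 constitutive core subunits of a pool was correlated with the change of its library total over 39 pools. The correlation was -0.906 in liver and 0.0186 in cortex. The median liver library had 6752508 reads in Ctr and 6563242 in SD pools. With the library total as a covariate, the median change of these 14 subunits in liver was -0.012, against 0.002 without it.

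**Figure D1:**
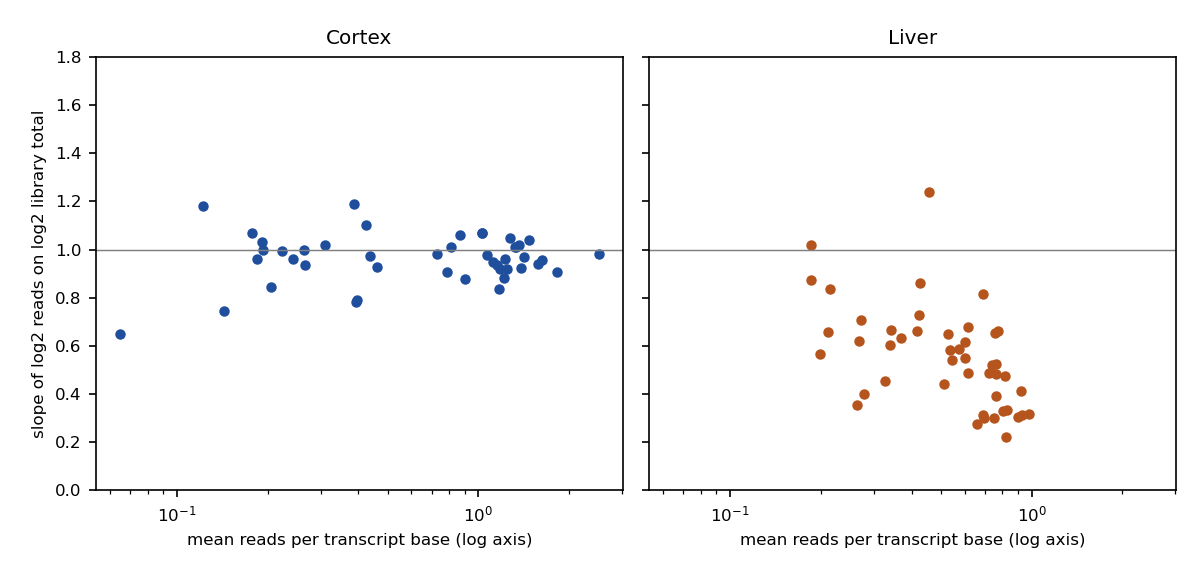
Slope of a member's log2 reads on the log2 library total (y axis) against its mean reads per transcript base (x axis, log scale) in cortex (left, 45 members) and liver (right, 46 members), for members with at least 0.05 reads per base; each point is 1 gene over 78 libraries and the grey line marks a slope of 1. Cortex points lie around the line at every density, and nearly all liver points lie below it, with a tendency to lower slopes at higher densities.

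The promoters of 5 members with large changes are shown here, the 2 with the largest falls in cortex (Psmf1 and Psmb9), 2 of the 19S particle that rose there (Psmc5 and Psmd12), and the chaperone that rose most in liver (Psmd9). Each run of 300 bases goes from 250 bases before the RefSeq start of the gene to 50 after it, is written 5′ to 3′ on the strand of the gene, and is placed in mm9 by its single exact match to that genome; the sequences are those of RefSeq on GRCm38.p6. Capitals mark matches, on either strand, to the antioxidant response element TGACNNNGC, the heat shock element GAANNTTC, the CCAAT box CCAAT, the GC box GGGCGG, the ETS core CCGGAAG and the interferon stimulated element (GAAA, any 2 bases, GAAA).
Psmf1, chr2:151566997-151567296, minus strand: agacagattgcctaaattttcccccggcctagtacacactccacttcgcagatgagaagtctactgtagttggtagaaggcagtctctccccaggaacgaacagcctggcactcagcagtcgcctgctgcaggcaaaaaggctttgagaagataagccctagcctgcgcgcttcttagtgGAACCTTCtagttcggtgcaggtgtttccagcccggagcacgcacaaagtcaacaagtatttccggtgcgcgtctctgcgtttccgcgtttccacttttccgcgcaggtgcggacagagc
Psmb9, chr17:34324226-34324525, minus strand: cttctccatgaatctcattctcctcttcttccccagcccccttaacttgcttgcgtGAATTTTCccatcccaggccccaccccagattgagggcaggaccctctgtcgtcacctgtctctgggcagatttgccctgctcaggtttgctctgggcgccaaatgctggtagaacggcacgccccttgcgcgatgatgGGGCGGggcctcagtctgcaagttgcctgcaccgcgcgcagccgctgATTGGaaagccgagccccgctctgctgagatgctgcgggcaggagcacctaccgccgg
Psmc5, chr11:106117249-106117548, plus strand: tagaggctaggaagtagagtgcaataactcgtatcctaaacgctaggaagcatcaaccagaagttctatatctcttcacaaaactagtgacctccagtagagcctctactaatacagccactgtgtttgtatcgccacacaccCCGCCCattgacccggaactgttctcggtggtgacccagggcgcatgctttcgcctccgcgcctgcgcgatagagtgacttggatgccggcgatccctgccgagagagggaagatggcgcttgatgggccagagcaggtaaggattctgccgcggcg
Psmd12, chr11:107340592-107340891, plus strand: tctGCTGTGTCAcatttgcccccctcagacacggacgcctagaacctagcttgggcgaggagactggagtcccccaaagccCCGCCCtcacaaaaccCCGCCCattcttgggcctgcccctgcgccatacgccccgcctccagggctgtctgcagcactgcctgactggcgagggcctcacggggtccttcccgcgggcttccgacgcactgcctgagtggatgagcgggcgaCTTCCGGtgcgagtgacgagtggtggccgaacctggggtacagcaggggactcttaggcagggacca
Psmd9, chr5:123677949-123678248, plus strand: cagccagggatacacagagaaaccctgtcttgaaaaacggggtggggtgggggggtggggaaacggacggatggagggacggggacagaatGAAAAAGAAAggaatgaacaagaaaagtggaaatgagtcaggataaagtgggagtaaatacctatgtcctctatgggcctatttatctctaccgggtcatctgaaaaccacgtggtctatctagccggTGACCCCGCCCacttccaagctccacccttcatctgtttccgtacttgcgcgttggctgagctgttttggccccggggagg
Windows were found for 42 of the 50 members (45 windows). The ETS core was present in 16 of these 45 windows (35.6%), against 8.86% of all 32851 windows, and the GC box in 24 (53.3% against 35.7%). The interferon stimulated element was in 5 (11.1% against 3.44%), the antioxidant response element in 6 (13.3% against 12.4%), the heat shock element in 3 (6.67% against 7.86%) and the CCAAT box in 15 (33.3% against 37.4%). Of the members higher in cortex after SD, 7 of 15 windows held the ETS core, and of the members lower there, 0 of 11. For the other motifs the counts, again of 15 and of 11, were 10 and 7 for the GC box and 4 and 3 for the CCAAT box. They were 2 and 0 for the antioxidant response element, 0 and 2 for the heat shock element, and 1 and 2 for the interferon stimulated element. Psmb1, Psmb2, Psmb7 and Psmg2, all lower, and Psmd7, which was higher, had no window. The windows are few, and no difference in motifs was tested. In Psmd9 the matches to the antioxidant response element and the GC box overlap. These are matches of letters and do not show that a factor binds.

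In undisturbed cortex, levels between members were compared per length of the transcript, as CPM per kilobase of transcript (RPKM), over the 39 Ctr pools. Psmc5, an ATPase of the 19S base, had the highest level with 105 ± 6.65 RPKM (SD, n = 39), followed by the beta subunit Psmb1 with 81.3 ± 5.46 and the alpha subunit Psma7 with 73.5 ± 6.32. The next were Psmb4 at 67.7 ± 5.14 and Psmc3 at 64.3 ± 4.30. The ranges over pools overlap between neighbours in this order, and differences between genes were not tested. The inhibitor Psmf1 had 11.3 ± 0.748 RPKM and the activator Psme4 13.4 ± 0.871. Among the constitutive core subunits, those with a share of at least 10% of their 100-base stretches also found elsewhere in the genome (Psma3, Psma4, Psma5, Psmb3 and Psmb5) had a median of 11.9 RPKM, and the other 9 one of 60.5 RPKM; reads that fit several places are not counted, so the levels of these 5 genes are uncertain.

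The immunoproteasome subunits were low in cortex. Psmb9 had 0.916 ± 0.240 RPKM and Psmb8 1.61 ± 0.294 RPKM, while Psmb10 had 20.1 ± 1.81 RPKM. Per length, the median over Ctr pools of the level of Psmb9 relative to Psmb6, the subunit it replaces, was 1.85%, that of Psmb8 relative to Psmb5 was 9.69%, and that of Psmb10 relative to Psmb7 was 32.7%. Psmb5 is among the genes given above with an uncertain level, so the relative level of Psmb8 is uncertain as well. Psmb11, the beta subunit of thymic epithelium, was near the limit with a mean of 9.83 reads per library.

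After SD, cortex moved its proteasome genes in both directions by small amounts. Of 49 members, 16 were higher and 14 lower (limma with the line as a block, adjusted p under 0.05 over all genes), 61.2%, which is below the share of all genes called in cortex, 76.3% (36.6% higher, 39.6% lower). The median absolute log2 change was 0.064 over members and 0.13 over all 14896 genes, and the median change was 0.0038 against -0.0097. The core and the regulatory part had different counts: 1 core gene was higher and 8 lower of 18 (median -0.038), and 15 regulatory genes were higher and 6 lower of 31 (median 0.035). After quantile normalization 7 of the 30 calls were lost (Psmb3, Psmb4, Psmc6, Psmd8, Psmd14, Psme2 and Psmg2) and 7 other members were called.

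**Figure D2:**
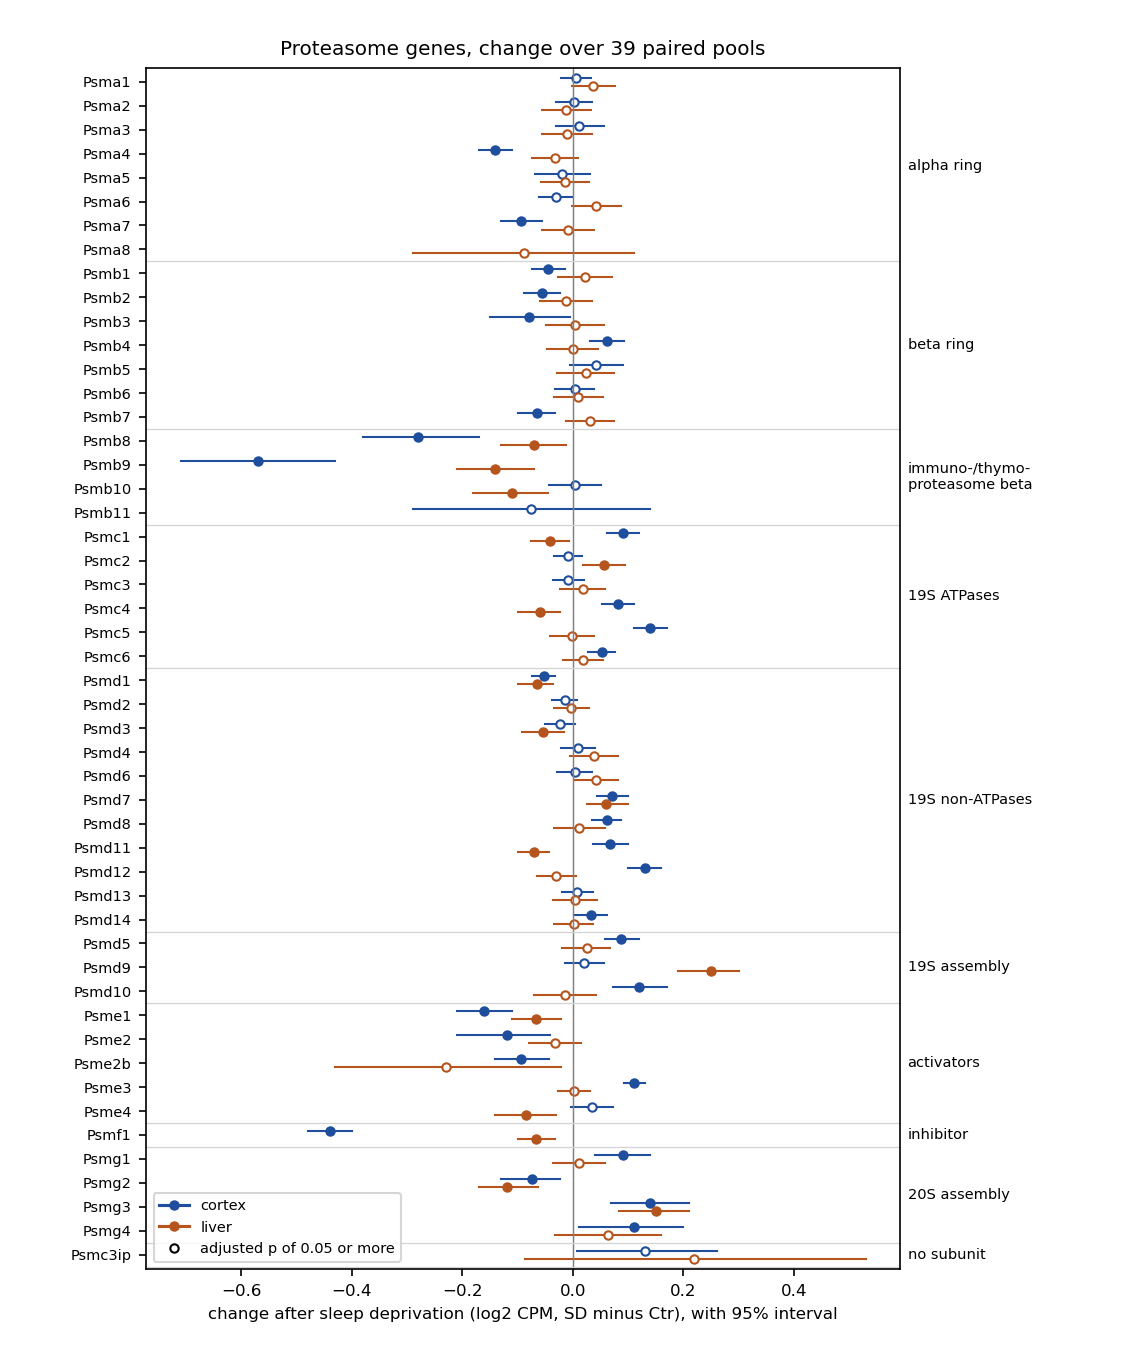
Change after SD of each proteasome gene (x axis, log2 CPM, SD minus Ctr) with its 95% interval over 39 paired pools, in cortex (blue) and liver (orange); genes are grouped by role, filled points have an adjusted p under 0.05 and open points do not. Psmf1, Psmb9 and Psmb8 lie furthest to the left in cortex and Psmd9 furthest to the right in liver among filled points.

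In the constitutive core, 6 of 14 subunits were lower in cortex after SD and 1 was higher. That is 50% called, against 76.3% of all genes in cortex (36.6% higher, 39.6% lower). Psma4, an alpha ring subunit, had 5.20, 5.39 and 5.65 log2 CPM (lowest, median and highest) in Ctr pools and 5.04, 5.25 and 5.42 in SD pools. It fell in 38 of 39 pools, by 0.14 ± 0.015 (SE, adjusted p = 3.6e-11 with limma), although the ranges of the 2 groups overlap. Psma7 fell by 0.093 and the beta subunit Psmb7, which carries the trypsin-like site, fell by 0.064 (adjusted p of 2.0e-05 and 4.0e-04). Psmb4 was the single riser, at 0.061 (adjusted p = 3.5e-04 with limma, 0.112 after quantile normalization). The catalytic subunits Psmb5 and Psmb6 were not called, with changes of 0.042 (95% interval -0.006 to 0.09) and 0.0031 (-0.033 to 0.039). Psmb5 passed the test as higher under 3 alternatives, with an adjusted p of 0.0365 after quantile normalization, 0.0313 in the 33 BXD/RwwJ lines alone and 0.0427 without BXD90.

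The immunoproteasome genes held the largest fall of any member in cortex. Psmb9 had -1.04, 0.24 and 0.86 log2 CPM (lowest, median and highest) in Ctr pools and -1.86, -0.32 and 1.11 in SD pools. The groups overlap widely, and within lines it was lower after SD in 35 of 39 pools. The log2 level fell by 0.57 ± 0.07 (SE, adjusted p = 6.7e-10 with limma), and the level so fell by 32.5%. It rests on a mean of 22.7 reads per library. Psmb8 had 0.79, 1.39 and 1.98 log2 CPM in Ctr pools and 0.37, 1.07 and 1.75 in SD pools, and it fell in 31 of 39 pools, by 0.28 ± 0.051 (adjusted p = 5.4e-06 with limma). Psmb10, which is expressed more highly, did not pass the test, with a change of 0.0038 (95% interval -0.044 to 0.051).

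Markers of microglia, cells known to carry the immunoproteasome, moved unevenly: of 4, P2ry12 was lower by 0.33 and Cx3cr1 by 0.14, Tmem119 was higher by 0.19, and Csf1r changed by 0.011 (adjusted p = 0.447 with limma). Their summed level was 170 to 264 CPM in Ctr pools and 162 to 254 CPM in SD pools. No B cell marker was listed in cortex. Of the 6 markers of T and NK cells 2 were listed there and both were lower, Lck by 0.46 (adjusted p = 2.2e-06 with limma) and Thy1, which neurons express as well, by 0.056, while Cd3e, Cd3g, Cd3d and Nkg7 were not listed; their summed level, nearly all of it Thy1, was 589 to 729 CPM in Ctr pools and 566 to 680 CPM in SD pools. The part of microglia and of T and NK cells in the changes of Psmb8 and Psmb9 was not tested.

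Of the 17 subunits of the 19S particle, 9 were higher in cortex after SD and 1 lower. The median change was 0.032, and 58.8% were called, against 76.3% of all genes (36.6% higher, 39.6% lower). The count by direction depended on the scaling: after quantile normalization 6 were higher and 5 lower, with a median of -0.0022. The constitutive core then still had 1 higher and 6 lower, with a median of -0.043. Psmc5 had 6.99, 7.09 and 7.46 log2 CPM in Ctr pools and 7.14, 7.24 and 7.40 in SD pools, a rise in 38 of 39 pools of 0.14 ± 0.015 (SE, adjusted p = 1.1e-11 with limma). The pool in which it was lower was that of BXD90, with a change of -0.25. Psmd12, a scaffold subunit of the lid, had 5.91, 6.10 and 6.38 log2 CPM in Ctr pools and 6.12, 6.23 and 6.35 in SD pools and rose in 37 of 39 pools, by 0.13 ± 0.015 (adjusted p = 1.1e-10 with limma). Both genes overlap between the groups at their upper ends, and the lowest SD pool lies above the lowest Ctr pool. The ATPases Psmc1, Psmc4 and Psmc6 rose by 0.09, 0.082 and 0.052, the last with an adjusted p of 0.286 after quantile normalization. Psmd1, the largest scaffold of the base, was the single subunit that was lower, by 0.053.

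The particle and the core were also set against each other within pools. In 36 of 39 cortex pools, the median change of the 17 subunits of the particle was above that of the 14 constitutive core subunits. The difference was 0.06 in the median pool. In liver the median of the particle was above that of the core in 19 of 39 pools. Values as deposited were used, and these counts were not computed after quantile normalization. Across pools, the changes of any pair of core subunits had a median correlation of 0.445 in cortex, pairs of 19S subunits one of 0.419, and pairs of 1 of each 0.40. Pairs among every seventh gene of the table (2128 genes) had a median of -0.000463. These genes were not matched to the members by level. In liver, where core changes moved with depth, the medians were 0.838 for core pairs, 0.716 for 19S pairs and 0.78 between them. Every seventh gene there (2016 genes) gave -0.00081. The points share their libraries. The cortex pools include BXD90, in which most members moved together, and the correlations were not computed without it. The median core change of BXD90 was -0.34, with -0.12 in the next lowest pool, and without BXD90 29 of the 30 calls in cortex remained, the lost one being Psmb3, while Psmb5 and Psmc3ip were gained.

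Of 7 assembly chaperones 5 rose in cortex and 1 fell. Of all genes in cortex 76.3% were called, 36.6% higher and 39.6% lower. Psmd9 did not pass the test, with a change of 0.021 (adjusted p = 0.283 with limma). Psmg3, a chaperone of the alpha ring, had 2.44, 2.76 and 3.24 log2 CPM in Ctr pools and 2.44, 2.91 and 3.25 in SD pools, and its rise of 0.14 ± 0.036 was seen in 29 of 39 pools (adjusted p = 4.8e-04 with limma). Psmd10, known as gankyrin, had 3.27, 3.53 and 3.86 log2 CPM in Ctr pools and 3.43, 3.65 and 3.84 in SD pools and rose in 33 of 39 pools, by 0.12 ± 0.023 (adjusted p = 1.2e-05 with limma). Psmg1 and Psmd5 rose by 0.09 and 0.087. Psmg2 was lower by 0.074, with an adjusted p of 0.00811 that became 0.0524 after quantile normalization. Psmg4 rose by 0.11 (adjusted p = 0.0386), a call that was lost without the block (adjusted p = 0.171) and under 3 other alternatives (adjusted p from 0.0587 to 0.0872).

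Among the activators, the subunits of the cytoplasmic PA28 fell in cortex and that of the nuclear PA28 rose. Psme1 had 4.06, 4.31 and 4.80 log2 CPM in Ctr pools and 3.75, 4.19 and 4.44 in SD pools, and it fell in 32 of 39 pools, by 0.16 ± 0.024 (adjusted p = 8.5e-08 with limma). Its partner Psme2 fell by 0.12 ± 0.041 (adjusted p = 0.00612 with limma, 0.29 after quantile normalization) and the related gene Psme2b by 0.094. Psme3, the nuclear activator, had 6.75, 6.85 and 6.96 log2 CPM in Ctr pools and 6.83, 6.97 and 7.07 in SD pools; it rose in 38 of 39 pools, by 0.11 ± 0.0087 (adjusted p = 1.3e-15 with limma). Psme4, which forms PA200, did not pass the test, with a change of 0.035 (adjusted p = 0.0841).

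Psme2 and Psme2b share sequence and are uncertain. Of the 100-base stretches of Psme2, 44.5% also occur elsewhere in the mm9 genome. The level of Psme2b per length was 6.11 times that of Psme2 in the median Ctr pool of cortex and 0.0117 times in liver, and Psme2 relative to its partner Psme1 was at 16.0% in cortex and 99.3% in liver. How the reads were divided between the genes in each tissue was not tested.

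Psmf1, on the minus strand of chromosome 2 (mm9, 151541548 to 151569922), had the most regular fall. Its Ctr pools had 5.25, 5.42 and 5.66 log2 CPM and its SD pools 4.73, 4.98 and 5.25 (lowest, median and highest), so that the groups touch only at their ends. It was lower after SD in 39 of 39 pools, with changes from -0.72 to -0.10, and the mean fell by 0.44 ± 0.019 (SE, adjusted p = 2.5e-25 with limma), so that its level fell by 26.3%. The alternatives gave adjusted p-values between 9.4e-32 and 9.9e-21.

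In liver fewer members changed. Of 49, 4 were higher and 12 lower, 32.7% against 53.9% of all genes called in liver (26% higher, 27.9% lower), and the median absolute log2 change was 0.033 against 0.12 over all genes. In the constitutive core, limma called 0 of 14 subunits, with 0 at an unadjusted p under 0.05 and 0 with voom on the recovered reads; quantile normalization called 1, Psma4. Their changes lay between -0.032 and 0.042, and their 95% intervals between -0.074 and 0.087. With the library total as a covariate, Psma4 (-0.043, adjusted p = 0.00222) and Psma6 were called in liver, and so were Psmd12, Psmd6 and Psme2.

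Psmd9, the chaperone known as p27, on the plus strand of chromosome 5 (mm9, 123678199 to 123700140), had the largest rise in liver among the members called. It had 5.92, 6.27 and 6.59 log2 CPM in Ctr pools and 6.10, 6.49 and 6.82 in SD pools. It was higher after SD in 36 of 39 pools, by 0.25 ± 0.026 (SE), or 18.6% (adjusted p = 5.5e-11 with limma), while the groups still overlap. Psmg3 rose in liver as in cortex, from 4.73, 4.99 and 5.30 log2 CPM in Ctr pools to 4.89, 5.13 and 5.93 in SD pools, by 0.15 ± 0.032 in 34 of 39 pools (adjusted p = 1.2e-04 with limma). The lid subunit Psmd7 rose by 0.06 and the ATPase Psmc2 by 0.056, the latter with an adjusted p of 0.0113 that became 0.0761 without the block.

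The immunoproteasome subunits were all lower in liver after SD. Psmb9 had 5.39, 5.82 and 6.33 log2 CPM in Ctr pools and 5.00, 5.70 and 6.22 in SD pools and fell in 32 of 39 pools, by 0.14 ± 0.034 (adjusted p = 5.0e-04 with limma). Psmb10 had 6.05, 6.35 and 6.85 log2 CPM in Ctr pools and 5.85, 6.22 and 7.02 in SD pools and fell in 33 of 39, by 0.11 ± 0.033 (adjusted p = 0.00378 with limma, 0.0525 in the 33 BXD/RwwJ lines alone). Psmb8 fell in 29 of 39 pools, by 0.07 ± 0.029 (adjusted p = 0.0373 with limma), and missed the threshold under 4 of 12 alternatives, with an adjusted p of up to 0.188 without the block and of 0.071 without BXD79, BXD85 and BXD101. In every Ctr pool these genes had a higher CPM in liver than in cortex, with ranges that do not touch, although the tables of the tissues were normalized separately.

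In liver all 6 B cell markers were lower after SD as well, by 0.93 to 1.90 on the log2 scale, with a summed level of 8.59 to 35.5 CPM in Ctr pools and 3.26 to 17.4 CPM in SD pools. Of the 6 markers of T and NK cells 1 was lower, and of 5 listed markers of macrophages and Kupffer cells 2 were higher. The part of these cells in the falls was not tested.

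The other falls in liver were small. Psmg2 fell by 0.12 ± 0.027 in 33 of 39 pools (adjusted p = 2.7e-04 with limma). Psme4 had 8.65, 8.84 and 9.12 log2 CPM in Ctr pools and 8.01, 8.76 and 8.90 in SD pools and fell by 0.084, and Psmd11, a lid subunit, fell by 0.071 in 33 of 39 pools. Psmf1 fell by 0.066, in 27 of 39 pools, and Psme1 by 0.066, with an adjusted p of 0.0102 that became 0.0641 without the block. Psmd1, Psmc4, Psmd3 and Psmc1 were lower by 0.065, 0.06, 0.054 and 0.041, and the calls of Psmd3 and Psmc1 were lost under some alternatives (that of Psmc1 also without BXD79, BXD85 and BXD101), with an adjusted p of up to 0.118 and 0.166.

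The tissues were then compared within lines, by taking the cortex change from the liver change of each line. Of 48 members in both tissues, 22 differed, 11 with the higher change in liver and 11 with the higher change in cortex, 45.8% against 57.6% of all 12695 genes (28% and 29.6%). The counts split by part, with 7 core genes above and 1 below in liver, and 4 regulatory genes above and 10 below. The number of members with the higher change in liver was 6 without the block. Among the ATPases, Psmc1 and Psmc4 rose in cortex and were lower in liver, with differences of -0.13 and -0.14 (adjusted p of 8.3e-06 and 1.1e-06), and so did Psmd11, with -0.14 (adjusted p = 9.7e-07 with limma).

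**Figure D3:**
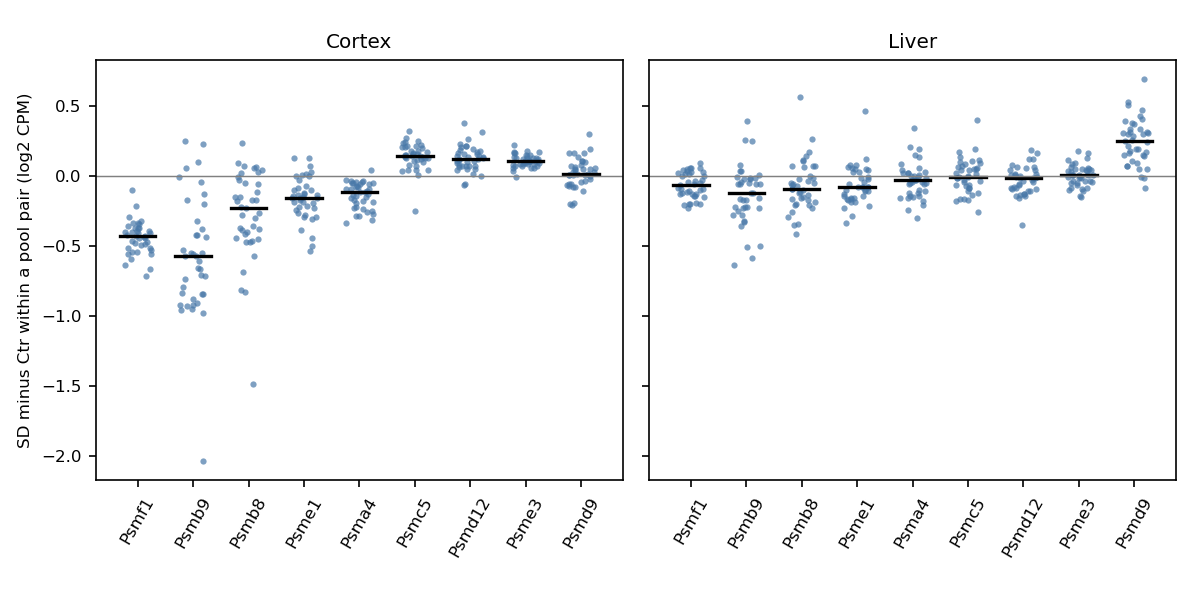
Change of 9 members in each of 39 pools (y axis, SD minus Ctr in log2 CPM) in cortex (left) and liver (right); points are pools and black lines medians. All pools of Psmf1 lie below 0 in cortex, and nearly all of Psmd9 lie above 0 in liver.

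The largest difference between tissues was that of Psmb9, 0.43 ± 0.08 (SE, adjusted p = 1.3e-05 with limma), with changes of -0.57 in cortex and -0.14 in liver. Psmf1 differed by 0.37 ± 0.023, with the liver change above the cortex change in 38 of 39 pools (adjusted p = 7.1e-18 with limma). Psmd9 differed by 0.22 ± 0.035, with a change in cortex of 0.021 (adjusted p = 0.283 for that change alone). Psmb8 differed by 0.21 ± 0.061 (adjusted p = 0.00365 with limma, 0.0969 after quantile normalization) and Psmd12 by -0.16 ± 0.026 (adjusted p = 1.5e-06 with limma). The slope on depth in liver, given above for Psmf1 and Psmd9, was 0.707 for Psmb9, 0.454 for Psmb8 and 0.587 for Psmd12. The part of compression in the differences of all these genes was not tested.

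Among members with a mean of over 100 reads per library, lines differed most in 2 catalytic subunits, Psmb5 in liver (SD 0.42 over Ctr pools) and Psmb6 in cortex (0.27). Psmb5, which carries the chymotrypsin-like site and lies on the minus strand of chromosome 14 (mm9, 55232644 to 55236851), fell into 2 sets of pools in liver: 27 Ctr pools lay between 4.24 and 4.67 log2 CPM and 12 between 5.14 and 5.56. The same 12 pools were the high ones after SD, and the correlation of Ctr with SD over the 39 pairs of pools was 0.946. The B6 pools had 5.43 and 5.31 log2 CPM in Ctr, the D2 pools 4.41 and 4.50, and the F1 pools 5.30 and 5.39. In cortex the range was narrower, 3.50 to 4.30 log2 CPM, with B6 pools at 4.30 and 4.09 and D2 pools at 3.65 and 3.98, and the correlation of cortex with liver over Ctr pools was 0.806. Reads were aligned to the genome of B6, and 33.7% of the 100-base stretches of Psmb5 occur elsewhere in it; the part of alignment in this difference was not tested.

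**Figure D4:**
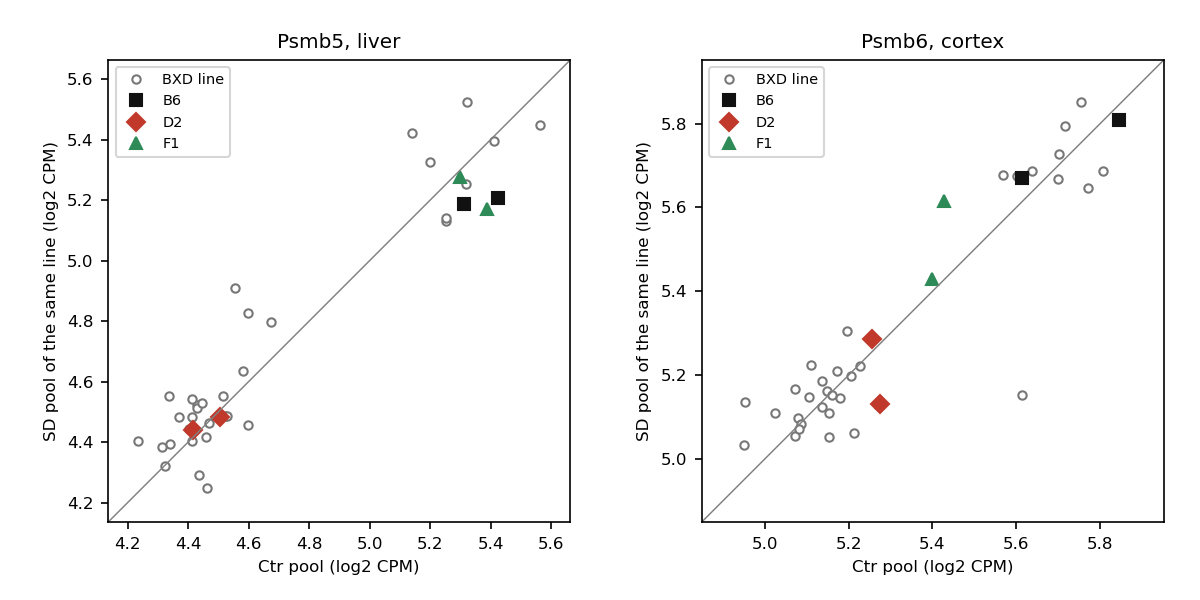
Level of Psmb5 in liver (left) and of Psmb6 in cortex (right) in the SD pool (y axis) against the Ctr pool (x axis) of each line, in log2 CPM; open circles are BXD lines, squares B6, diamonds D2 and triangles F1 hybrids, and the grey line marks equal values. Psmb5 forms 2 separate sets of points with the F1 pools in the upper one, and Psmb6 has its F1 pools between the parents.

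Psmb6, which carries the caspase-like site and lies on the plus strand of chromosome 11 (mm9, 70338869 to 70341360), had its wider spread between lines in cortex, with an SD of 0.27 over Ctr pools against 0.12 in liver. Its Ctr pools ranged from 4.95 to 5.84 log2 CPM, with a correlation of 0.913 with SD pools. The B6 pools had 5.84 and 5.61 log2 CPM, the D2 pools 5.26 and 5.27, and the F1 pools 5.43 and 5.40. In liver the B6 pools had 6.89 and 6.86 and the D2 pools 6.88 and 6.82, and the correlation of cortex with liver over Ctr pools was -0.20. None of the stretches of this gene occurs elsewhere in the genome. One line, BXD90, was at 5.61 in Ctr and 5.15 in SD. Over members, the median SD between Ctr pools was 0.10 in cortex and 0.11 in liver, against 0.14 and 0.20 over all genes.

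The widest spreads were those of members with few reads. In cortex these were Psmb11 (SD 0.74 over Ctr pools), Psmb9 (0.42) and Psmg4 (0.36, on a mean of 79.4 reads), and in liver Psma8 (0.68), an alpha subunit known from testis with a mean of 38.9 reads, Psmc3ip (0.62) and Psme2b (0.47). Psma8 ranged from 0.62 to 3.82 log2 CPM in Ctr pools of liver, highest in BXD56, which was highest after SD too, at 3.47. Psmc3ip did not pass the test in either tissue, with changes of 0.13 in cortex (adjusted p = 0.052, with calls after quantile normalization and without BXD90) and 0.22 in liver (adjusted p = 0.226).

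The pathway around the proteasome was followed in 44 listed genes of a list of 49, in both tissues. In cortex 17 were higher and 15 lower, 72.7%, near the 76.3% of all genes (36.6% higher, 39.6% lower). In liver 14 were higher and 8 lower, 50.0%, near the 53.9% of all genes (26% higher, 27.9% lower). Among partners of the proteasome, Pomp, the maturation factor of the core, rose by 0.12 in cortex in 35 of 39 pools (adjusted p = 1.9e-08 with limma), and Usp14, a deubiquitinase bound to the 19S particle, fell by 0.094 in 37 of 39 pools. Neither passed the test in liver, with changes of 0.046 and 0.024. The ubiquitin receptor Adrm1 changed by -0.051 in cortex (adjusted p = 0.104) and by 0.0092 in liver.

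Nfe2l1, known to raise proteasome genes when the proteasome is blocked, changed by 0.0011 in cortex (adjusted p = 0.918) and rose by 0.13 in liver in 33 of 39 pools (adjusted p = 6.3e-08 with limma). Nfe2l2, which drives the response to oxidative stress, rose by 0.21 in cortex in 35 of 39 pools and fell by 0.10 in liver in 31 of 39 (adjusted p of 7.5e-10 and 1.3e-04). Ubb, which encodes ubiquitin, rose by 0.13 in liver (adjusted p = 2.4e-05), with a change of 0.019 in cortex (adjusted p = 0.108).

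Among shuttles and receptors, Zfand5, an activator of the proteasome in wasting muscle, fell by 0.24 in cortex in 39 of 39 pools and by 0.11 in liver in 29 of 39 (adjusted p of 5.2e-20 and 1.2e-05). Zfand2a, a stress-induced partner of the 19S particle, rose by 0.29 in liver in 37 of 39 pools (adjusted p = 3.4e-11 with limma), with a change of 0.0042 in cortex. Sqstm1, the autophagy receptor p62, fell by 0.026 in cortex (adjusted p = 0.0175) and changed by 0.026 in liver (adjusted p = 0.288). The 7 listed cofactors of the segregase Vcp all passed the test in cortex, 4 higher and 3 lower, against 76.3% of all genes. In liver limma called 0 of 7, against 53.9% of all genes, with 0 at an unadjusted p under 0.05 and 0 with voom. The difference between tissues passed the test for 7 of 7, against 57.6% of all genes.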

How the data were processed

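RNA-seq libraries of cortex and liver were used as deposited. The authors used STAR for alignment of single-end stranded reads to mm9 and HTSeq for counts per RefSeq gene, excluded genes with low mean counts, and deposited log2 CPM after edgeR's TMM normalization. Undoing these steps gave reads that were whole within 0.02 for 100% of values. Of 172 libraries, 156 were used; those of 4 BXD/TyJ lines enter 1 alternative only.

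SD and Ctr pools were compared with limma 3.58.1 in R 4.3.3 (lmFit, eBayes with trend), with the line as a block, two-sided, and Benjamini-Hochberg adjustment over all genes of the tissue. The study names no block; it was used because the change is paired by line, and lines pair the pools: residuals of a line's Ctr and SD pools had a correlation of at least 0.299 in cortex and 0.169 in liver. The tests were checked on simulated data. The simulated counts were drawn in proportion to depth, so this check does not cover the compression seen in liver. Transcript lengths and positions came from GENCODE on NCBIM37 (mm9), with the coding transcript of the longest coding sequence.

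Members and lists were chosen with earlier results of these data known. Named genes were the catalytic and immunoproteasome subunits, the activators and Psmc3ip, in each tissue the 5 largest rises and falls among members called and the 3 widest spreads over Ctr pools, and the 5 largest differences between tissues. Other members are named by role after their values were seen. Alternatives numbered 12, of which 3 were added after seeing the data. For some genes of the pathway list, which enter its counts, no value is reported here.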

Additional observations from a re-analysis of the deposited data

Results flagged for a closer look

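The responses of 5 members differed between cortex and liver by a test of the difference itself, with the cortex change taken from the liver change of each line. The differences were 0.43 for Psmb9, 0.37 for Psmf1, 0.22 for Psmd9, 0.21 for Psmb8 and -0.16 for Psmd12. That of Psmb9 could not be computed with genes of a mean log2 CPM of at least 0 only, because this gene is below that level in cortex, and that of Psmb8 lost its call after quantile normalization.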

How the results depend on the processing

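Across 12 alternatives the counts over all members called higher or lower in a comparison stayed within 1.5 times their values, except that without the replicate block 6 members, not 11, had a higher change in liver than in cortex (4 core and 2 regulatory, not 7 and 4). Counts of smaller parts moved further: in the 33 BXD/RwwJ lines 1 core gene, not 3, was lower in liver. Of 861 values of 26 named genes, 827 kept their direction and side of the threshold, 17 lost the call, 17 gained it and 0 reversed. Without the block, which drops the pairing by line, the 12 members called in liver and the 28 in cortex were among the 16 and 30 called with it. Quantile normalization kept 23 of the 30 calls in cortex and added 7, and it took the 19S particle there from 9 higher and 1 lower to 6 and 5. With the library total as a covariate 21 members were called in liver, 16 of them as before. Depth limits Psmb8, Psmb9, Psmb11, Psmc3ip, Psma8 and Psme2b, with few reads, and the compressed liver values of abundant members.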
